A study of Mus musculus with 2 samples.

Results

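The genes described here are the enzymes of the citric acid cycle, the NADP-linked isocitrate dehydrogenases, the malate-aspartate shuttle, ketone body use and the breakdown of branched-chain amino acids. The 31 members were given as a list of symbols with no threshold on any measured value, though with earlier results of these data known, and all 31 were found among the 55536 annotated genes of the tables. The libraries are total RNA-seq of hearts from female B6CASTF1/J mice aged 10 days, and the strain is by its name the first-generation hybrid of C57BL/6J and CAST/EiJ. There was 1 group of 2 libraries, labelled biological replicates 1 and 2, each started from 300 ng of RNA with synthetic ERCC spike-in RNAs. The labels name no treatment and no engineered allele. The labels give 1 donor record for both, so p-values below compare the 2 libraries and measure no effect of a condition.

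As background, the citric acid cycle burns acetyl groups in the mitochondrial matrix and passes their electrons to the respiratory chain, and it turns fast in heart muscle, which works almost without pause. Heart mitochondria receive those acetyl groups from fatty acids, pyruvate and, in suckling animals on a fat-rich diet, from ketone bodies made in the liver. Leucine, isoleucine and valine are also broken down in mitochondria, through a dehydrogenase complex built like that of the cycle's 2-oxoglutarate dehydrogenase, and their carbon ends in acetyl-CoA and in propionyl-CoA, which feeds succinyl-CoA into the cycle.

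The libraries held 40184481 and 39620543 expected counts in annotated genes. The members held 0.859% of the counts of replicate 1 (exact 95% binomial interval 0.856% to 0.861%) and 0.930% of replicate 2 (0.927% to 0.933%), and these intervals cover counting error only. Levels are given in TPM, an abundance corrected for transcript length and scaled to the same sum in each library, with replicate 1 before replicate 2. The deposited files hold 2 sets of abundances, and values are from the first, which carries the column headers of RSEM, unless the second, made from the reads and an index with the headers of kallisto, is named. A gene was counted as detected at 1 TPM or more in both libraries, which held for 30 of 31 members and for 11731 protein-coding genes. Against the label heart, all 6 cardiomyocyte markers were detected with a median of 4877 and 5140 TPM, while none of 5 skeletal muscle markers was detected. Their summed level was 1.77 and 1.41 TPM. The tissue was not separated into cells, so fewer cells of a type and less RNA per cell cannot be told apart.

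The 12 enzyme subunits of the cycle were abundant in both hearts. Their median was 233 and 242 TPM, against 10.93 and 10.87 TPM over all detected protein-coding genes, a ratio of 21.4 and 22.3. Cs, citrate synthase, which joins the acetyl group to oxaloacetate, stood at 410 and 434 TPM. The subunits of the NAD-linked isocitrate dehydrogenase, which releases the first carbon dioxide, lay close together. Idh3a, its catalytic subunit, had 213 and 230 TPM, Idh3b had 236 and 248, and Idh3g had 210 and 223. Within each library the ratio of Idh3a to Idh3g was 1.02 and 1.03, which did not exceed 3 SD of its log2 value, while Idh3b was 1.12-fold above Idh3g and did. A pair of genes was read as apart when both libraries gave the same sign and the mean log2 ratio was over 3 times its SD. That rule is a way of reading and no test, because 2 libraries allow no exact two-sided p under 0.5. Its SD covers the spread between the libraries and not the difference between methods of counting.

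The 2-oxoglutarate dehydrogenase complex, which makes succinyl-CoA, was not level across its parts. Ogdh, its decarboxylating subunit, had 526 and 579 TPM. Dlst, the succinyl-transferring core, had 255 and 267 TPM, or 477 and 459 by the second set of tables, and Dld, the dehydrogenase that sister complexes share, had 153 and 166. Ogdh was above Dlst by a log2 ratio of 1.08 ± 0.051 (SD, n = 2), or 2.12-fold, and Dld was below Dlst by a log2 ratio of -0.71 ± 0.034 (SD, n = 2). Ogdhl, a paralog of Ogdh, had 5.72 and 5.85 TPM, so Ogdh was 93.8-fold above it, and 145-fold and 148-fold by the second set of tables.

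Succinyl-CoA ligase, the step that makes a nucleoside triphosphate directly, pairs the shared alpha subunit Suclg1 with a beta subunit linked to either ADP or GDP. Suclg1 stood at 201.87 and 202.85 TPM. Sucla2, the ADP-linked subunit, had 234 and 255 TPM, whereas Suclg2, the GDP-linked subunit, had 42.9 and 44.0 TPM. Sucla2 was 5.62-fold above Suclg2, a log2 ratio of 2.49 ± 0.059 (SD, n = 2). Fh1, fumarase, had 233 and 236 TPM, and 465 in each library by the second set of tables. Mdh2, the malate dehydrogenase that closes the cycle, had 671 and 727 TPM and was the most abundant of the 12 by this measure. Suclg2 was the lowest of the 12, and it was the only subunit of the cycle whose mean lay below the highest branched-chain member.

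Of the NADP-linked isocitrate dehydrogenases, which supply reducing power for antioxidant defence and synthesis, the mitochondrial and cytosolic genes stood far apart. Idh2, the mitochondrial enzyme, had 698 and 702 TPM, and Idh1, the cytosolic and peroxisomal enzyme, had 20.9 and 21.5 TPM. The ratio was 32.9-fold, a log2 difference of 5.04 ± 0.022 (SD, n = 2). Idh2 was also 3.16-fold above Idh3a, the catalytic subunit of the NAD-linked enzyme.

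The malate-aspartate shuttle carries reducing equivalents from cytosolic NADH into the matrix, and its cytosolic and mitochondrial enzymes were closer in level. Mdh1, the cytosolic malate dehydrogenase, had 823 and 891 TPM, the highest level of the 31 members in these tables. It ranked at position 50 among the detected protein-coding genes, while Idh2 and Mdh2 ranked at 67 and 68. Got2, the mitochondrial aspartate aminotransferase, had 266 and 293 TPM, and the cytosolic Got1 had 176 and 233. Got2 was above Got1 by 1.51-fold in replicate 1 and 1.26-fold in replicate 2, a spread too wide for the pair to be read as apart.

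Ketone body use rested on a very uneven pair. Oxct1, the transferase that activates acetoacetate with CoA from succinyl-CoA (chromosome 15, 4026383 to 4155344, plus strand, mm10), had 92.3 and 150 TPM. Bdh1, the mitochondrial dehydrogenase that turns beta-hydroxybutyrate into acetoacetate (chromosome 16, 31422280 to 31458901, plus strand, mm10), had 0.31 and 0.25 TPM, from 9 and 11 expected counts. It was the only member below the detection level. The log2 ratio of Oxct1 to Bdh1 was 8.28 ± 0.66 (SD, n = 2), and the few Bdh1 counts limit its precision. Bdh2, a cytosolic enzyme with related activity, had 2.04 and 2.82 TPM. Acat1, the thiolase that splits acetoacetyl-CoA after Oxct1, had 124 TPM in each library, and 288 and 306 by the second set of tables. The testis paralogs Oxct2a and Oxct2b were at 0 and 0 TPM and at 0 and 0.02 TPM.

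**Figure D1:**
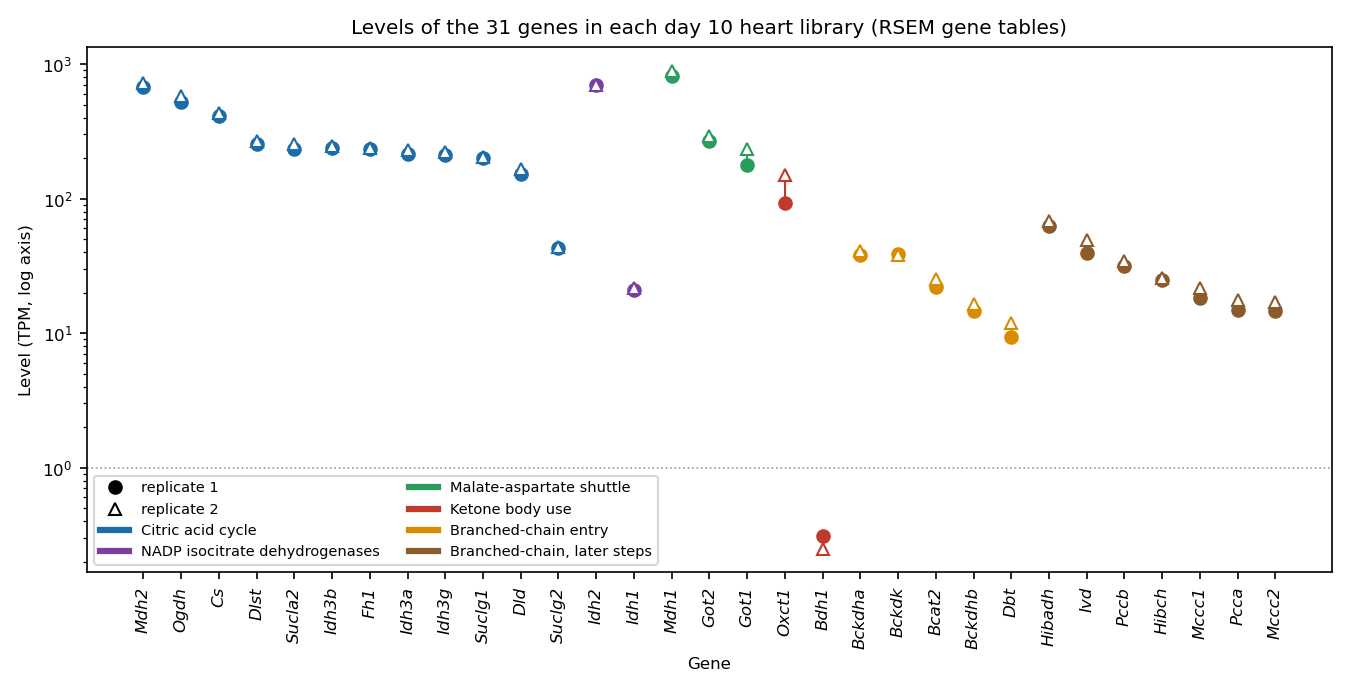
Level of each of the 31 genes in TPM on a log axis, by pathway group (colour), with filled circles for replicate 1, open triangles for replicate 2 and a dotted line at 1 TPM. The cycle subunits other than Suclg2 lie above every branched-chain gene, Oxct1 shows the widest gap between libraries among the detected genes, and Bdh1 alone lies under the line.

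The genes of branched-chain breakdown sat about an order of magnitude below the cycle. Over the 12 members the median was 23.6 and 25.6 TPM, and the cycle's median was 9.91-fold and 9.45-fold above it in replicates 1 and 2. Even so, 11 of 12 had a mean above the median of all detected protein-coding genes, and the branched-chain median was 2.15 and 2.35 times that median. Bcat2, the mitochondrial aminotransferase that removes the amino group, had 22.1 and 25.4 TPM, and its cytosolic paralog Bcat1 had 1.22 and 1.70 TPM. Bcat2 was 15.4-fold above Bcat1, a log2 ratio of 3.95 ± 0.17 (SD, n = 2). By the second set of tables the spread was wider, with 17.9-fold in replicate 1 and 7.69-fold in replicate 2.

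The committed step is the branched-chain dehydrogenase, and its subunits differed among themselves. Bckdha and Bckdhb, the subunits of the decarboxylase, had 38.0 and 41.0 TPM and 14.6 and 16.4 TPM, so Bckdha was 2.54-fold higher. Dbt, the transferase core, had 9.42 and 11.8 TPM, the lowest of the 12, and stood at a log2 ratio of -1.90 ± 0.15 (SD, n = 2) to Bckdha. The shared Dld was 15-fold above Dbt, and 25.3-fold and 24.3-fold by the second set of tables. Set against the sister complex, Ogdh was 13.9-fold above Bckdha, and 21.6-fold and 22.2-fold by the second set. Bckdk, the kinase that switches the complex off, had 39.0 and 38.2 TPM, and Ppm1k, the phosphatase that switches it on, had 7.71 and 11.4 TPM. The kinase exceeded the phosphatase 5.003-fold in replicate 1 and 3.33-fold in replicate 2.

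Beyond the dehydrogenase the pathways part. On the leucine branch, Ivd, isovaleryl-CoA dehydrogenase, had 39.6 and 49.0 TPM. Mccc1 and Mccc2, the subunits of methylcrotonyl-CoA carboxylase, had 18.4 and 21.6 TPM and 14.6 and 17.0 TPM, and Mccc1 was 1.27-fold higher. On the valine branch, Hibch, which frees 3-hydroxyisobutyrate from CoA, had 25.03 and 25.76 TPM, and Hibadh, which oxidises it, had 62.8 and 68.4 TPM, the highest of the 12 members. Hibadh was 2.57-fold above Hibch. Propionyl-CoA carboxylase, which carries isoleucine and valine carbon on to succinyl-CoA, was read from its alpha subunit Pcca at 14.9 and 17.5 TPM and its beta subunit Pccb at 31.3 and 34.2 TPM. Pccb was 2.02-fold above Pcca. In all, 20 of 22 compared pairs were apart, and 18 were by the second set of tables. No share over other pairs of genes is given, so the count is not read as particular to these enzymes.

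**Figure D2:**
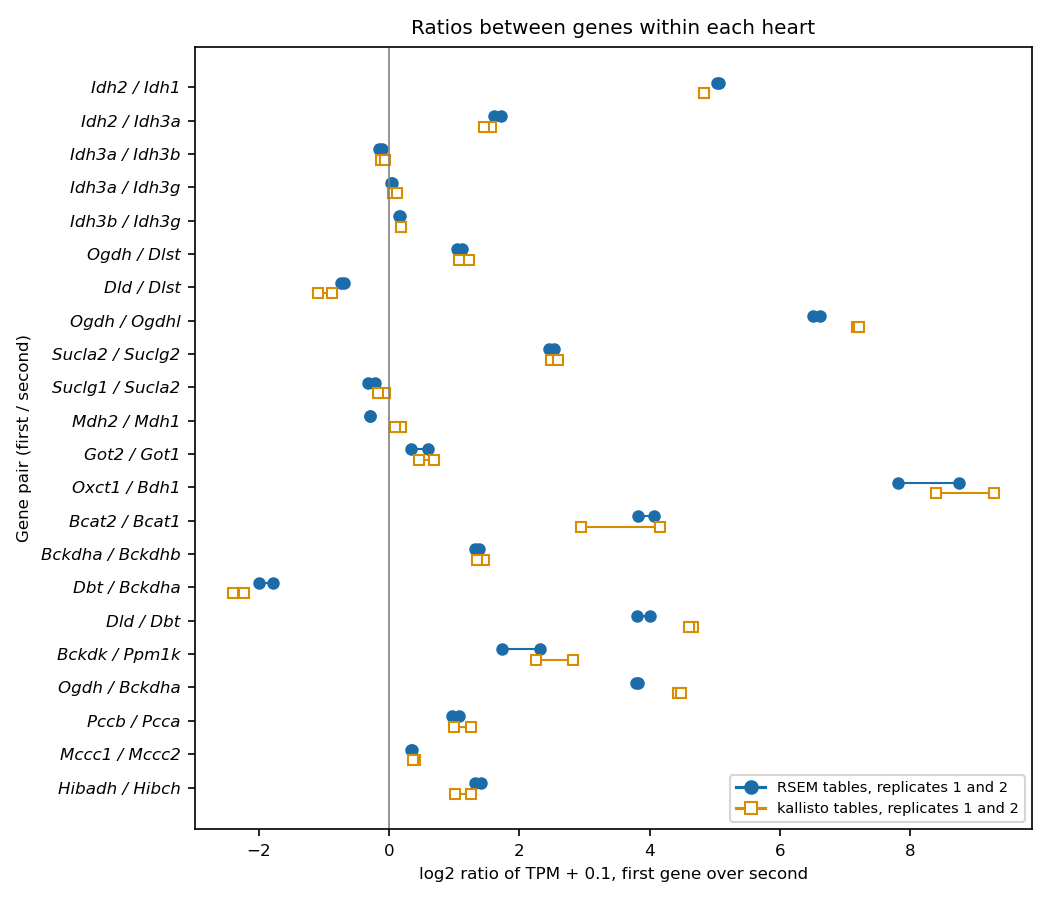
Log2 ratio of TPM + 0.1 within each library for 22 gene pairs, first gene over second, with blue circles from the RSEM tables and open orange squares from the kallisto tables, a line joining the 2 libraries of each. Every pair shown keeps its side of 0 in both libraries and by both methods except Mdh2 over Mdh1, which changes side between methods.

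The members were also put in order of mean TPM. The 31 means spanned 3060-fold, from 857 ± 48.6 TPM (SD, n = 2) for Mdh1 to 0.28 ± 0.042 TPM for Bdh1. By mean TPM 15 members stood among the 500 most abundant protein-coding genes and 17 in the top 10%. Of the 30 neighbouring pairs in the order, 12 had overlapping library values and could not be ranked. The order at the top depended on the table. By kallisto Ogdh led with 1007 and 1070 TPM, ahead of Mdh2 at 849 and 891, Idh2 at 859 and 852, and Mdh1 at 749.5 and 834. Kallisto gave 22.8% and 24.8% of the TPM of Ogdh to Ogdh-207, of 702 bases, and 23.3% and 19.1% to Ogdh-206, of 621 bases. Of the gene's kallisto counts, Ogdh-207 held 3.85% and 4.08% and Ogdh-206 held 3.07% and 2.45%. RSEM gave 8.75% and 7.83% to Ogdh-207 and 0.85% and 0.92% to Ogdh-206. The part of these short transcripts in the lead of Ogdh was not tested. TPM by kallisto was above that by RSEM in 28 of 31 members, with a median ratio of 1.28, and the same median over all detected protein-coding genes was 1.25. The ratio exceeded 1.5 in Fh1 (1.98), Ogdh (1.88), Dlst (1.79) and Hibch (1.55).

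The transcripts of several members were split between coding and non-coding annotation, and the sequences at the points where they part are shown because they mark what each form loses or gains. In Idh3a (chromosome 9, 54586334 to 54604661, plus strand, mm10, GENCODE M21) the transcript Idh3a-204 carries an additional exon of 95 bases at chr9:54592161-54592255, between exons that Idh3a-205 joins directly. The exon brings in the stop codon TAA, and the transcript is annotated as a target of nonsense-mediated decay, the pathway that destroys messengers with an early stop. Each 30-base stretch below is read 5′ to 3′ from the annotated transcript, with the shared exon in lower case and the bases after the joint in capitals.
Idh3a-205: ggtggtGTTCAGACAGTAACTTTAATTCCT
Idh3a-204: ggtggtGGCATCGTTTGCATTACTATTTAA
The last 3 capitals of Idh3a-204 are the stop codon. By RSEM, Idh3a-204 made up 44.6% and 47.9% of the gene's TPM, and by kallisto 64.7% and 65.7%. The coding Idh3a-205 made up 49.0% and 49.5% by RSEM and 34.7% and 33.9% by kallisto. The leading form therefore differed between methods, while the libraries lay within 4 percentage points of each other for both forms. These transcripts also differ at their ends, with a last exon of 664 bases in Idh3a-204 and 1380 bases in Idh3a-205. The tables hold no counts of reads across the joint, so the shares cannot be ascribed to the extra exon alone.

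In Mdh2 (chromosome 5, 135778480 to 135790398, plus strand, mm10) the transcript Mdh2-203 leaves out the exon of 169 bases at chr5:135783305-135783473 and is likewise annotated as a decay target. Its joint runs from the first exon to the third, where Mdh2-201 joins the first to the second.
Mdh2-201: agcacttcggcccagAACAATGCTAAAGTG
Mdh2-203: agcacttcggcccagGCTACCTTGGACCGG
RSEM gave Mdh2-203 41.2% and 39.7% of the gene, and kallisto gave it 13.3% and 13.4%. The annotation gives Mdh2-203 a transcript support level of 5, the weakest, and Mdh2-201 a level of 1, the strongest. Mdh2-201 led by both methods, with 58.1% and 59.4% by RSEM and 79.3% and 81.9% by kallisto. The first exon also differs, with 140 bases in Mdh2-203 and 322 in Mdh2-201, so the shares cannot be ascribed to the missing exon alone. In Mdh1 the short coding transcript Mdh1-202 of 549 bases took 42.1% and 42.8% by RSEM and 8.28% and 12.5% by kallisto. The change of order between Mdh1 and Mdh2 thus coincided with different shares given to short transcripts, and its cause was not tested.

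Sucla2 showed a choice of ends that leaves the coding length unchanged. Sucla2-203 and Sucla2-201 (chromosome 14, plus strand, mm10) both have a coding sequence of 1389 bases, and Sucla2-201 removes an intron of 224 bases at chr14:73595474-73595697 after the stop codon, where Sucla2-203 reads on. The capitals mark the bases after that point.
Sucla2-203: ggtggatggctacggGTATTAATGTGCTGT
Sucla2-201: ggtggatggctacggAATGTCACTTGCAGT
By RSEM Sucla2-203 led with 58.7% and 58.4%, and by kallisto Sucla2-201 led with 51.5% and 52.6%. Their first exons also differ, with 233 bases in Sucla2-203 and 132 in Sucla2-201, so the shares cannot be ascribed to the intron alone. In the kinase gene Bckdk (chromosome 7, 127904082 to 127910221, plus strand, mm10) the leading transcript by both methods was Bckdk-202, which keeps an intron of 87 bases at chr7:127908080-127908166 and has a coding sequence of 1095 bases. Bckdk-201, which removes it, has a coding sequence of 1236 bases. The capitals again mark the bases after the point where they part.
Bckdk-202: aggacctatgcatggGTAAGGCCCCACCTT
Bckdk-201: aggacctatgcatggCTTTGGCTTCGGGTT
Bckdk-202 made up 58.7% and 61.1% of the gene by RSEM and 55.9% and 59.3% by kallisto. Bckdk-201 made up 15.7% and 14.04% by RSEM and 10.9% and 10.3% by kallisto. Bckdk-201 also has a further first exon of 88 bases and a last exon of 2055 bases, against 688 in Bckdk-202. The shares therefore cannot be ascribed to the kept intron alone. Another coding transcript, Bckdk-204, took 31.2% and 29.9% by kallisto but 1.84% and 0.62% by RSEM.

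**Figure D3:**
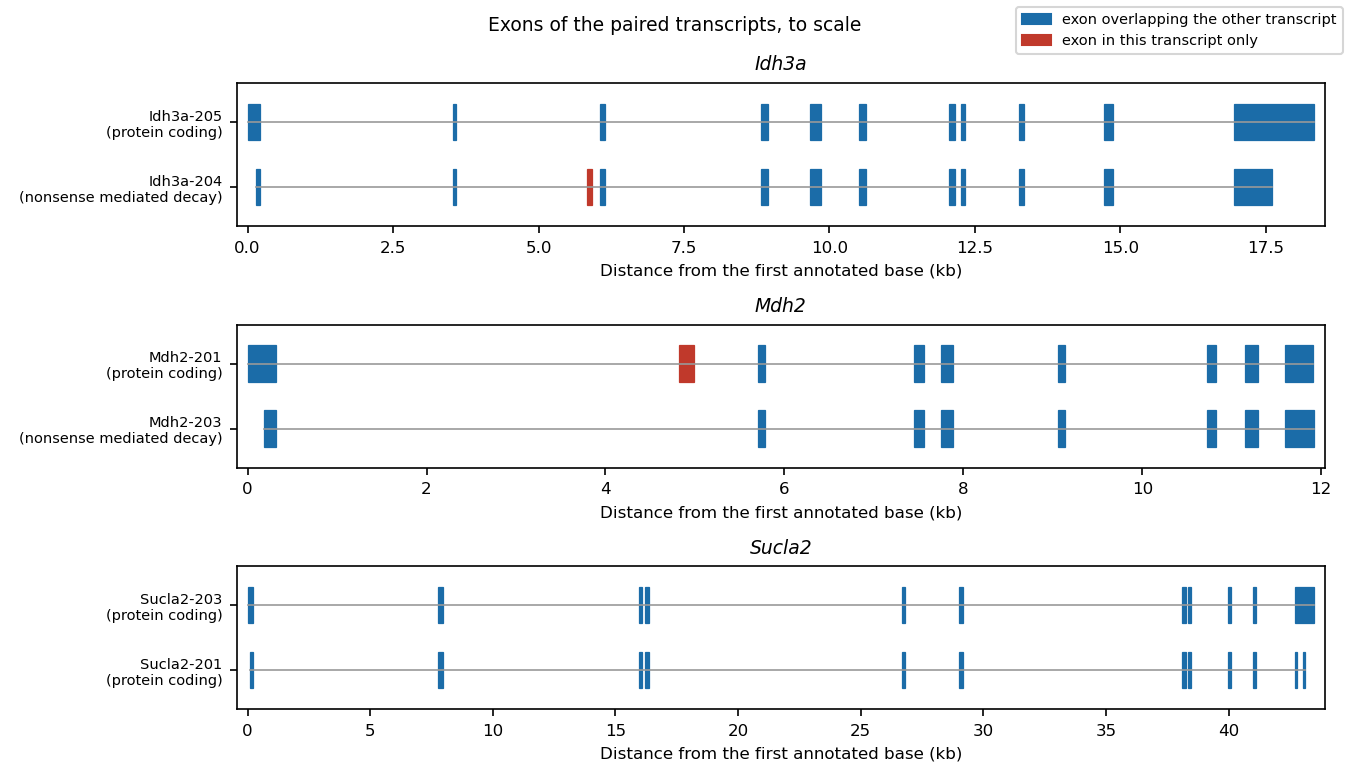
Exons of the compared transcripts of Idh3a, Mdh2 and Sucla2 drawn to scale from GENCODE M21, as distance in kilobases from the leftmost exon base, with exons that overlap the other transcript in blue and exons without overlap in red. Idh3a-204 has an exon that Idh3a-205 lacks, Mdh2-203 lacks an exon of Mdh2-201, and the Sucla2 forms part at the last exons.

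Over all members, 192 transcripts were annotated, and the same transcript led by both methods in 24 of 31 genes. The leading form was protein-coding in 28 genes by kallisto and in 30 by RSEM. It held at least 90% of the gene in both libraries by both methods in 6 genes, Cs, Idh3b, Idh3g, Idh2, Got2 and Hibadh. Transcripts annotated as decay targets, retained introns or processed transcripts held at least 10% by both methods in both libraries in 8 of 30 detected members, or 26.7%. The share over 11704 detected protein-coding genes was 32.2%, and with 30 members no difference from it is read. Those 8 were Idh3a, Dlst, Fh1, Mdh2, Oxct1, Ivd, Mccc1 and Pcca. In Fh1 the decay target Fh1-204, with a 97-base exon, took 38.6% and 38.9% by kallisto but 15.9% and 13.8% by RSEM. These are shares of TPM, and Fh1-204, of 599 bases, held 13.4% and 12.9% of the gene's kallisto counts. Its annotated support level was 5, against 1 for the coding Fh1-201. In Oxct1 the coding Oxct1-201 took 56.04% and 53.02% by RSEM and 63.7% and 58.4% by kallisto. The short processed transcript Oxct1-203 took 36.3% and 40.4% by kallisto and 17.6% and 18.2% by RSEM. RSEM gave a further 26.4% and 27.5% to Oxct1-202, of the same class, to which kallisto gave 0%. These too are shares of TPM, and Oxct1-203, of 699 bases, held 6.13% and 7.35% of the gene's kallisto counts.

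**Figure D4:**
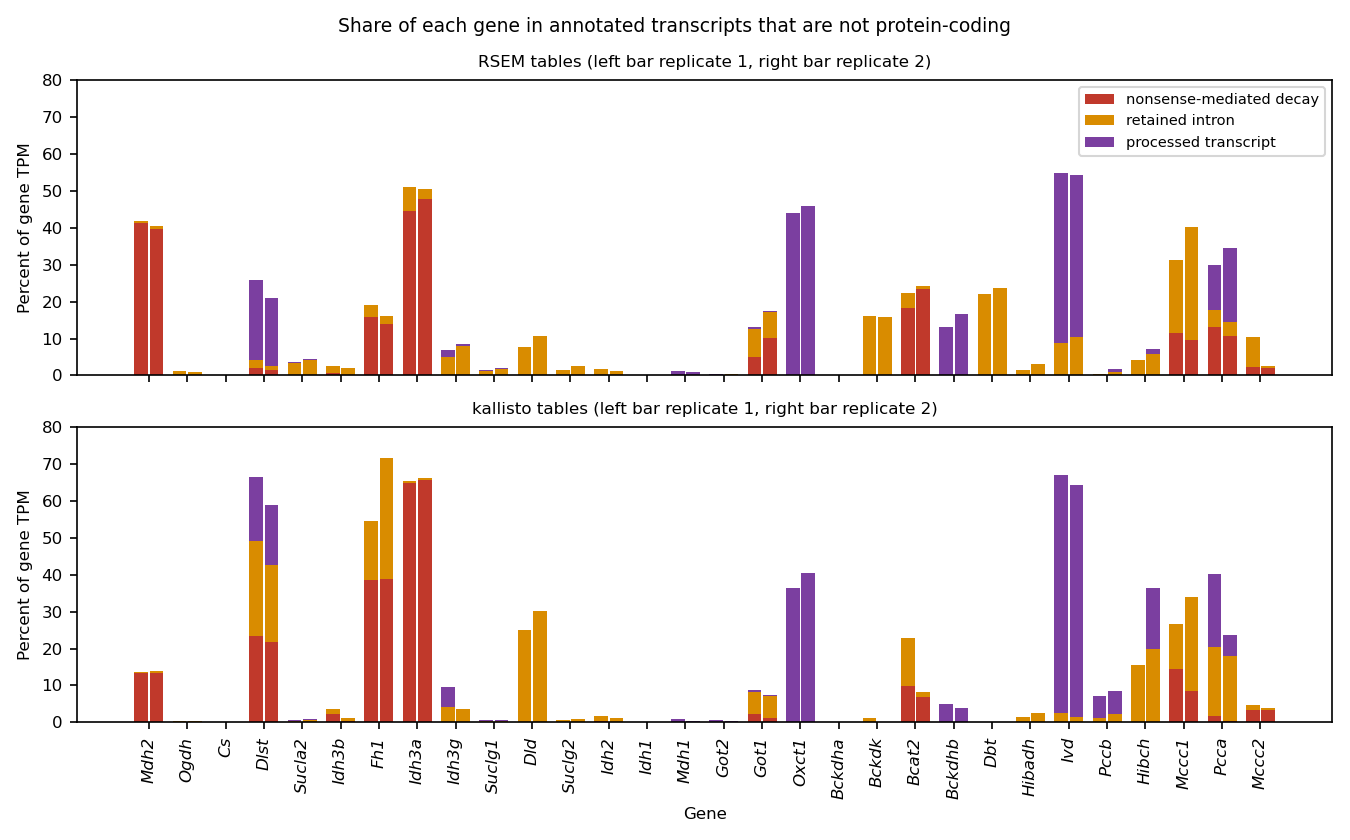
Percent of each detected member's TPM in transcripts annotated as nonsense-mediated decay targets, retained introns or processed transcripts, stacked by class, with the left bar for replicate 1 and the right bar for replicate 2, RSEM tables above and kallisto tables below. Idh3a and Ivd exceed 50% by both methods in both libraries, whereas Fh1 and Dlst are higher and Mdh2 is lower by kallisto than by RSEM.

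The libraries differed in these genes by small amounts that went mostly 1 way. With TMM-scaled counts, 30 of 31 members were higher in replicate 2, with a median log2 ratio of 0.12, against a median of 0.00 and 49.9% higher over 16517 tested genes. Of 7664 genes with at least 1000 counts, as 30 of 31 members had, 53.3% were higher, with a median of 0.01. By the exact conditional binomial test, two-sided, with Benjamini-Hochberg adjustment over all tested genes, 20 of 31 members passed at an adjusted p under 0.05 as higher in replicate 2 at any fold, where the background was 9.75% of tested genes and 16.1% of those with at least 1000 counts. None of the 31 passed as lower, where the background was 7.59% of tested genes and 876 of the 7664 with at least 1000 counts. None was lower at an unadjusted p under 0.05 by the same exact test either, while 22 were higher. The share of all tested genes at an unadjusted p under 0.05 is not given, so these unadjusted counts have no background. At 1.5-fold or more only Oxct1 passed, against 2.76% of tested genes in either direction and 1.49% higher. Among genes with at least 1000 counts these shares were 0.874% and 0.665%. With spike-in scaling no member passed at 1.5-fold, and the share of all genes at that bound and scaling is not given. No member passed at 2-fold, where 1.28% of all tested genes did, 0.611% as higher and 0.672% as lower. Of genes with at least 1000 counts, 0.287% passed at 2-fold. At 1.5-fold 1.27% of tested genes passed as lower. The test treats counts as free of variation between animals, and the biological coefficient of variation over these libraries was 9.14%.

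Scaling moved this direction. Scaled by the ERCC spike-ins, the median of all tested genes went to -0.11 and that of the members to 0.02, with 19 members higher and 12 lower. This scaling moves every gene by the same amount, so it leaves the members' place among all genes as it was. Under that scaling 6 members passed as higher and 3 as lower at any fold by the exact binomial test. The share of all tested genes that passed under spike-in scaling is not given, so these counts have no background. The cardiomyocyte markers moved by a like amount under TMM scaling, with a median log2 ratio of 0.13. At any fold 5 of 6 passed as higher, and Myl2, the ventricular light chain, passed as lower with a log2 ratio of -0.06. Their part in the members' shift was not tested.

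Oxct1 differed most. Its 6147 and 9449 expected counts gave a log2 ratio of 0.66 with a counting SE of 0.024, or 1.58-fold higher in replicate 2 (adjusted p = 1.84e-171 by the exact binomial test). Of the 7664 deeply counted genes, 0.652% had a ratio at least as large in size. Scaled by spike-ins the ratio was 1.47-fold. Got1 followed with 10016 and 12769 expected counts and 1.31-fold (log2 ratio 0.39, counting SE 0.019, adjusted p = 2.73e-88 by the exact binomial test), and 2.64% of deeply counted genes had as large a ratio. Bcat2, Ivd, Dbt and Mccc2 had log2 ratios of 0.33, 0.31, 0.27 and 0.23, all passing as higher at any fold. Of these, Bcat2 and Ivd also passed under spike-in scaling, while Dbt and Mccc2 did not (adjusted p = 0.0731 and 0.178 by the exact binomial test). The central 95% of deeply counted genes lay between -0.27 and 0.33, so Oxct1 and Got1 alone among the 31 lay outside it.

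The remaining 11 members did not pass the test at any fold. Suclg1 had a log2 ratio of 0.00 (counting SE 0.024, adjusted p = 0.992 by the exact binomial test), Hibch of 0.02 and Idh2 of 0.02. Bckdk, the kinase of the branched-chain dehydrogenase, was the only member with a negative ratio, -0.04 (adjusted p = 0.673 by the exact binomial test), whereas its counterpart Ppm1k was 1.44-fold higher in replicate 2 (adjusted p = 3.58e-17 by the same test). Bdh1 had a count ratio above 1 and a TPM ratio below 1, within its counting error.

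**Figure D5:**
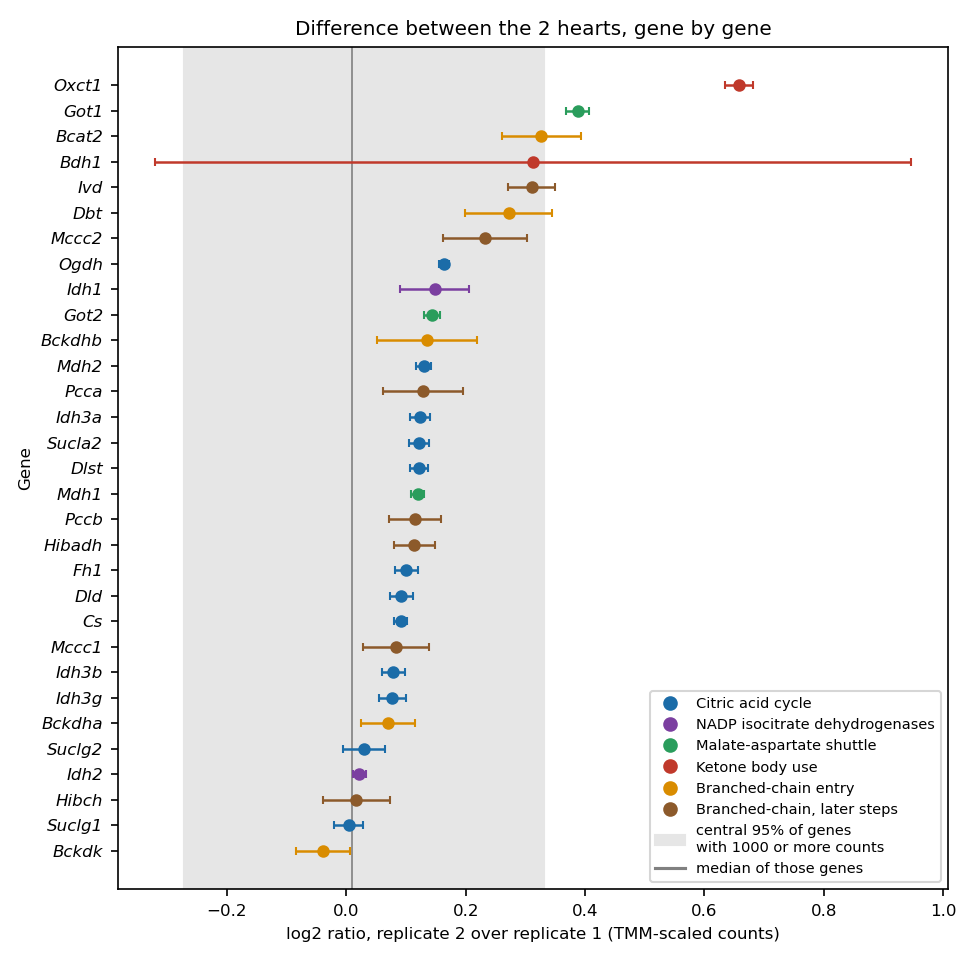
Log2 ratio of TMM-scaled counts, replicate 2 over replicate 1, for each of the 31 genes, ordered by ratio and coloured by pathway group, with bars of 1 counting SE, a grey band for the central 95% of genes with 1000 or more counts and a line at their median. Oxct1 at 0.66 and Got1 at 0.39 lie right of the band, and Bckdk at -0.04 is the only negative value.

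Cell type markers also differed between the libraries. The 4 atrial markers summed to 506 and 933 TPM and all were higher in replicate 2 by more than 1.5-fold, and the 7 erythroid markers summed to 5271 and 12990 TPM, all higher by more than 2-fold. Of 7 adipocyte markers, 5 were lower in replicate 2 by more than 2-fold, with Ucp1, which defines brown fat, at 44.5 and 6.85 TPM. The summed adipocyte list was 515 and 492 TPM, most of it Fabp4, which heart endothelium also expresses. Fibroblast, endothelial and macrophage markers summed to 1543 and 1580, 311 and 313, and 37.8 and 36.2 TPM, and hepatocyte markers to 3.53 and 5.91 TPM. Whether these cells had a part in the ratios of Oxct1 and Got1 was not tested.

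Of 41 further genes of the same pathways, 39 had enough counts to test. Among them 16 passed as higher and 3 as lower in replicate 2 at any fold, against 9.75% and 7.59% of all tested genes. Of the 7664 tested genes with at least 1000 counts, 16.1% passed as higher and 876 as lower. The median log2 ratio of the 39 pathway genes was 0.09. The most abundant were the succinate dehydrogenase subunits Sdha, at 494 and 512 TPM, and Sdhc, at 405 and 420 TPM, followed by Pdha1, a subunit of pyruvate dehydrogenase, at 357 and 372 TPM. The lowest were Oxct2a, Oxct2b and Dhtkd1, a paralog of Ogdh that acts in lysine breakdown, at 0.65 and 1.26 TPM. At 1.5-fold or more, Dhtkd1 alone passed, as higher, from 85 and 128 expected counts, but kallisto gave it 1.33 and 1.16 TPM, the opposite direction. Of those that passed as higher at any fold, the pyruvate dehydrogenase subunits Pdhb, Dlat and Pdhx had log2 ratios of 0.15, 0.15 and 0.26, and the succinate dehydrogenase subunits Sdha, Sdhb and Sdhc had 0.09, 0.22 and 0.07. The carriers of the shuttle, Slc25a11, Slc25a12 and Slc25a13, had 0.13, 0.16 and 0.15. In branched-chain and propionyl-CoA breakdown, Echs1, Auh, Aldh6a1, Mmut (named Mut in the files) and Mmab had 0.11, 0.18, 0.18, 0.29 and 0.35, beside Ppm1k. The genes that passed as lower at any fold were Aco1, the cytosolic aconitase, Pcx, pyruvate carboxylase, and Slc16a1, a carrier of lactate and ketone bodies.

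Promoter sequence was read for 29 of 31 members from RefSeq windows on GRCm38.p6, each of 300 bases from 250 before to 50 after a gene's start. Idh3a and Dbt had no entry. The letters TCAAGGTCA, a binding site of estrogen-related receptors, on either strand were in the windows of 0 of 29 member genes and of 0.466% of all 27025 genes. That says only that these letters are not in these windows. The nuclear respiratory factor 1 motif, GCGCA followed by any base and GCGC, on either strand, were in 4 of 29 member genes and in 5.19% of all genes. The 4 matches are shown in capitals with up to 10 bases on either side, on the strand of the gene.
Hibadh: agcaaggagaGCGCGTGCGCgagctgtcct
Pccb: cagcgacgacGCGCAGGCGCagactcgcaa
Dld: cgtatatgttGCGCAGGCGCa
Sucla2: ctgcgtctctGCGCCTGCGCggtgcccagg
They lie at chr6:52640347-52640376, chr9:101034934-101034963 and chr12:31351422-31351442 on the minus strand and at chr14:73552759-73552788 on the plus strand. The match began 66 bases before the start in Hibadh, 69 in Pccb and 17 in Sucla2, and at position 40 after it in Dld. A match of letters is a description and no proof of binding. Each gene was given the CpG count of its window with the most CpG dinucleotides. The median over the 29 members was 19, from 8 in Mccc1 to 37 in Ogdh, and over 17492 protein-coding genes it was 15.

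Some members have close neighbours on the other strand. The counting strand is not stated, and whether reads of these neighbours entered the members' values was not tested. Idh3g starts 131 bases from Ssr4 on the other strand, which had 41.5 and 38.8 TPM. Idh1 and Bckdha each start 183 bases from a gene on the other strand, Pikfyve at 6.97 and 6.29 TPM and Exosc5 at 8.29 and 7.32 TPM. Idh3b overlaps Nop56 on the other strand, which had 20.3 and 15.9 TPM. Pcca overlaps Ggact, which had 9.45 and 9.89 TPM, and Dbt overlaps the processed pseudogene Gm4596, which had 2.60 and 1.64 TPM. Expected counts were whole numbers within 0.005 in both libraries for 28 of 31 members, and those of Cs, Suclg2 and Got2 were not.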

How the data were processed

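Total RNA-seq tables of 2 heart libraries of 1 group (replicates 1 and 2) were used. Per the text deposited with them, they were made on assembly mm10 with GENCODE M21. The authors' gene tables and first transcript tables, made from alignments to the transcriptome, hold expected counts per gene or transcript. The same deposited tables hold TPM and, per the file headers, the percent of a gene in each transcript, with interval bounds. The authors' second transcript tables, made from reads and an index, hold estimated counts and TPM. Column headers are those of RSEM and kallisto. For the tools, their versions and the strand setting: not given in the sources used here.

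Spike-ins and numeric entries were left out. Expected counts were rounded and scaled by TMM (edgeR 4.0.16, R 4.3.3). For each gene the libraries were set against each other by an exact binomial test, conditional on the summed count and two-sided, at a summed count of at least 20, with Benjamini-Hochberg adjustment over all genes tested, a prior count of 0.5 for ratios, and a main bound of adjusted p under 0.05 at 2-fold. edgeR also gave the common dispersion, from which the biological coefficient of variation was taken, but with 1 group its quasi-likelihood test was not applicable. Pairs used log2(TPM + 0.1). The procedure was tested on simulated data that held counting error only and changes larger than that of any member. That check does not cover variation between animals or ratios as small as those of the members. Counting errors leave out variation between animals, and amplified reads are not independent molecules. Scripts ran in Python 3.11.15 (scipy 1.17.1, pandas 2.3.3, numpy 2.4.6, matplotlib 3.10.9).

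Named were all 31 members, every gene of the 22 pairs, of 41 further pathway genes the 3 highest, the 3 lowest and those passing between libraries, and markers whose list moved. Acat1, Bdh2 and the neighbouring genes were added after their values were seen. Some genes of these pathways are not reported here. The members, lists and pairs were chosen with earlier results of these data known. Alternatives were kallisto values, other scalings, count minimums, fold bounds, a pseudocount of 1 and leaving out either library.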

Additional observations from a re-analysis of the deposited data

How the results depend on the processing

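Of the 16517 genes tested, 212 passed at 2-fold, 58 at a summed count of at least 200, 456 at 1.5-fold and 2865 at any fold, and among the members the counts were 0, 1 at 1.5-fold and 20 at any fold. With spike-in totals the members' median log2 ratio went from 0.12 to 0.017 and the members higher in replicate 2 from 30 to 19. By kallisto the median TPM over both libraries was 319.8 against 237.7 for the cycle, 442.8 against 360.7 for the NADP-linked isocitrate dehydrogenases, 356.5 against 279.5 for the shuttle, 27.5 against 23.8 for branched-chain entry and 39.4 against 25.4 for the later branched-chain steps. Mdh2 over Mdh1 reversed from a log2 ratio of -0.29 to 0.14 by kallisto. Of the other pairs, 18 kept their reading by kallisto, 2 lost it (Idh3a to Idh3b and Suclg1 to Sucla2) and 1 gained it (Got2 to Got1), and all 22 kept it at a pseudocount of 1. By RSEM 21 of 31 leading-transcript shares moved by more than the spread between libraries. No paired analysis was possible because there is 1 group only, so that the replicate numbers pair nothing. Depth limits Bdh1 most among the members, with 9 and 11 counts, and 2 libraries limit every error given here.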
